A study of Mus musculus with 9 samples.

Results

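The collagen genes were taken as the rows of the expression table whose symbol has the form of a collagen chain (Col, a number, a, a number) and whose value was above 0 in at least 3 of 9 heart libraries. Of 21989 rows, 44 had such a symbol and 38 of these met the rule. Of the 38, 25 reached the level at which genes were tested (FPKM 1 or more in 3 or more of the libraries) and 13 did not. FPKM stands for fragments scaled by gene length and by the library's total, so that levels of different genes are compared per length.

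The 9 libraries are poly-A RNA-seq of whole hearts. The mice were C57BL/6J males, 18 to 20 weeks old, with 3 in each of 3 groups. Sham mice had a sham operation and received distilled water. TAC mice, the model group, also received distilled water; the abbreviation is usually read as transverse aortic constriction, surgery that narrows the aorta and so raises the pressure the heart pumps against. LD mice had TAC and received Lingguizhugan decoction, a Chinese herbal preparation. The labels give no time after the operation, no dose and no region of the heart, and whole heart RNA mixes all cell types, so that fewer cells of a type and less RNA per cell cannot be told apart.

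Collagens are secreted or membrane proteins in which chains wind around each other into a triple helix. The helix needs glycine in each triplet of residues, written Gly-X-Y. Fibrillar collagens, made in the heart chiefly by fibroblasts, form the cables between muscle cells; type IV collagens form the sheet-like network of basement membranes around muscle cells and capillaries; type VI collagens form beaded microfilaments; and FACIT collagens sit on the surface of fibrils. Pressure overload is a classical setting for deposition of fibrillar collagen in the heart.

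The Gly-X-Y repeat can be read in the genes themselves, and an exon of 54 bases, which codes for 6 such triplets, is the commonest inner coding exon of fibrillar collagens. The exons below show it in 4 fibrillar genes, 1 basement membrane gene and 1 microfibrillar gene whose values are given later. They were read from GENCODE M21 transcripts (GRCm38), 5′ to 3′ on the coding strand, with each glycine codon in capitals.
Col1a1, coding exon 34 of 51, chr11:94946574-94946627, plus strand: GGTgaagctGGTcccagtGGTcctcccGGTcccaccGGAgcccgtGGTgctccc
Col1a2, coding exon 34 of 52, chr6:4530172-4530225, plus strand: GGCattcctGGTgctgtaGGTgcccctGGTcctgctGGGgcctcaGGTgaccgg
Col3a1, coding exon 32 of 51, chr1:45337958-45338011, plus strand: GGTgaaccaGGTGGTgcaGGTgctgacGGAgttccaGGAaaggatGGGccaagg
Col5a3, coding exon 36 of 67, chr9:20786351-20786404, minus strand: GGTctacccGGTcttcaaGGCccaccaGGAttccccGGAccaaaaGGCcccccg
Col4a1, coding exon 17 of 52, chr8:11238998-11239051, minus strand: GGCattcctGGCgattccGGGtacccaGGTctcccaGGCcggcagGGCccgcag
Col6a2, coding exon 10 of 27, chr10:76610650-76610703, minus strand: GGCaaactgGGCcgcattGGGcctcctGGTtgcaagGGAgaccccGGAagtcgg
In each of the 6 exons a glycine codon stands first in every triplet, and Col3a1 has an additional glycine codon next to the second.

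The classes shared this repeat and differed in how it is cut into exons. Of 452 inner coding exons in the 8 fibrillar genes, 48.0% were exactly 54 bases long and 83.4% had a length that is a multiple of 9, the length of 1 Gly-X-Y unit. Over 158518 inner coding exons of all genes these shares were 0.736% and 14.3%. In the 6 basement membrane genes 4.23% of 284 inner exons were 54 bases long and 47.2% were a multiple of 9. The short-chain collagens Col8a1, Col8a2 and Col10a1 have 2 coding exons each and no inner one. The longest unbroken run of Gly-X-Y codons was 337 to 344 triplets in Col1a1, Col1a2, Col3a1, Col5a1, Col5a2, Col5a3 and Col11a2, and 217 in Col27a1. In the basement membrane genes the repeat was broken up, with 22 to 27 runs of at least 5 triplets and none longer than 66. These counts describe the annotation and were not set against the expression values.

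**Figure D1:**
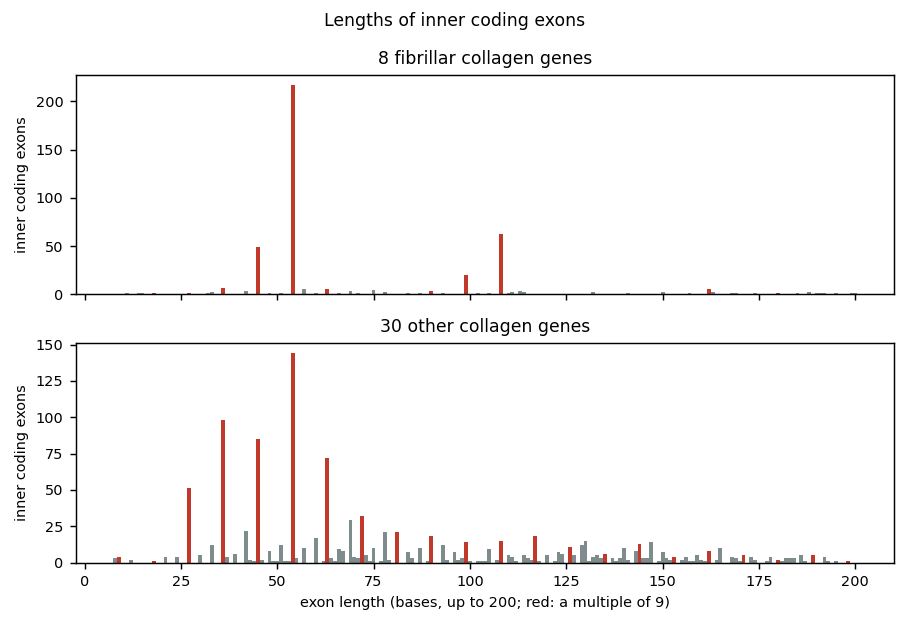
Number of inner coding exons (y axis) of each length in bases (x axis, up to 200 bases) in the 8 fibrillar collagen genes and the 30 other collagen genes with expression above 0 in at least 3 libraries; red bars are multiples of 9. The fibrillar genes have 217 exons at 54 bases, their tallest bar, and the other collagens are spread over more lengths.

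Upstream sequence was available in RefSeq (GRCm38.p6) for 30 of the 38 genes. The 3 windows shown belong to Col3a1, which encodes the type III fibre, Col5a3, lower in LD than in TAC and sham by unadjusted p, and Col8a1, the collagen with the smallest p between TAC and sham. Each gives the 250 bases before the annotated start site, 5′ to 3′ on the gene's strand. Capitals mark the motif CCAAT, the GC box, spelled GGGCGG, and the TATA motif, spelled TATAAA, each searched on both strands, with no overlap between them in these windows.
Col3a1, chr1:45311288-45311537, plus strand: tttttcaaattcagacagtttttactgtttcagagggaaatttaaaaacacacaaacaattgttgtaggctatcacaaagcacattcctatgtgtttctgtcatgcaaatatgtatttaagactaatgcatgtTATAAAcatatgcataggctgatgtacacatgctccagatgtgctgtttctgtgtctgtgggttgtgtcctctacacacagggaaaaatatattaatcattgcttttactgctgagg
Col5a3, chr9:20815068-20815317, minus strand: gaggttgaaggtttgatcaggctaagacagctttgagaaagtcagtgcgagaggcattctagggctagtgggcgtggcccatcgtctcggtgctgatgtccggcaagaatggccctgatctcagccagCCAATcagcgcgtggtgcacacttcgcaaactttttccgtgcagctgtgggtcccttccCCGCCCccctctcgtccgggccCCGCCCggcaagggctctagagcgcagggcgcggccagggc
Col8a1, chr16:57754738-57754987, minus strand: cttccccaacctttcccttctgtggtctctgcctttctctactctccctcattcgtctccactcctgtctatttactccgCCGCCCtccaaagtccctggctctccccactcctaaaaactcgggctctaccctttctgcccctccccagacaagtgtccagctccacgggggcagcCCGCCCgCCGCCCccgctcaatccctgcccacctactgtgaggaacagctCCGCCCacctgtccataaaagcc
The Col3a1 window is 35.2% G and C and holds no GC box, the Col5a3 window is 62.8% and holds 2, and the Col8a1 window is 60.8% and holds 4. Over the 32 windows of 30 collagen genes a GC box occurred in 59.4%, against 32.7% of 32851 windows of all genes. CCAAT occurred in 31.2% against 33.8% and TATAAA in 15.6% against 12.4%. A match is a description of the letters, and no test was made.

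Library totals recovered from the values were 7.43 to 18.1 M fragments. The 3 shallowest libraries were LD replicate 1 and TAC replicates 1 and 3. Replicates correlated across genes with r between 0.913 and 0.973. On the first principal component (29.4% of the variance) TAC replicate 3 stood at -51.0 and LD replicate 3 at 48.3, and the other libraries lay between -10.4 and 17.1. The heart label was matched by 15 of 15 cardiomyocyte markers above the testing level, with a summed FPKM of 50323 to 97295 per library. The labels name no batch. The labels speak of biological repeats but tie no mouse to a litter or cage.

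By mean FPKM in sham hearts the tested collagens ran from Col4a2 at 66.3 ± 17.5 (SD, n = 3, as for all means below) and Col4a1 at 64.6 ± 19.6, through Col5a3 at 42.3 ± 7.06, Col3a1 at 37.2 ± 16.5, Col1a2 at 25.3 ± 6.48, Col6a1 at 23.6 ± 2.52 and Col1a1 at 13.5 ± 2.23, down to Col9a2 at 0.0819 ± 0.102. The basement membrane pair therefore stood first in sham. Col4a2 and Col4a1 differed by less than their SDs, as did Col5a3 and Col3a1 (against the SD of Col3a1) and Col1a2 and Col6a1. All 38 collagens together made up 0.0811%, 0.0518% and 0.0627% of the FPKM sum in the 3 sham libraries. The share was 0.0540%, 0.0628% and 0.124% in TAC and 0.0608%, 0.0466% and 0.0467% in LD. TAC replicate 3 had the highest share and sham replicate 1 the second highest, and the groups overlapped between TAC and sham (exact permutation test, two-sided adjusted p = 0.853 over 27 comparisons of shares). The exact test of 3 against 3 cannot give a p below 0.1.

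**Figure D2:**
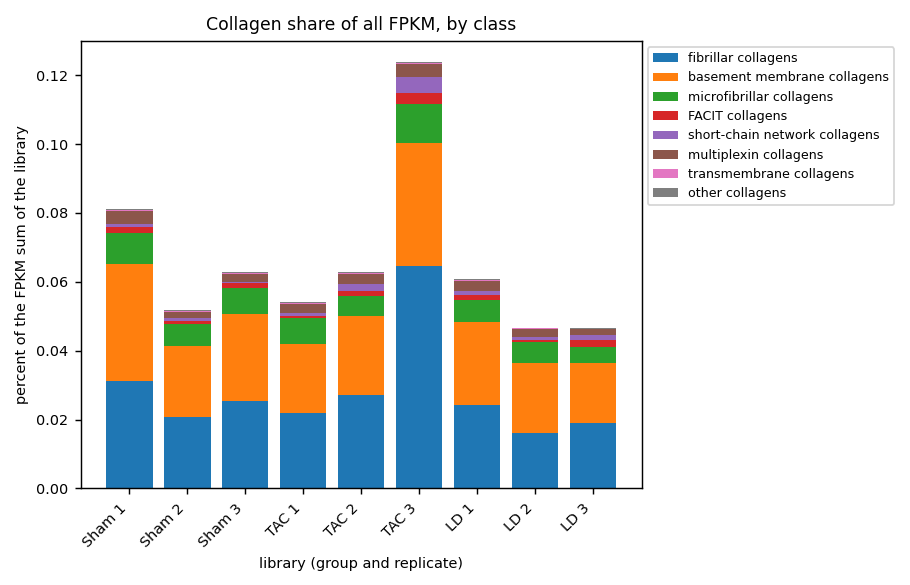
Percent of each library's FPKM sum (y axis) taken by the 38 collagen genes, stacked by class, in the 9 libraries (x axis, group and replicate). The bar of TAC replicate 3 reaches 0.124%, and the other 8 bars lie between 0.0466% and 0.0811%.

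No collagen passed limma's test at an adjusted p under 0.05 in any comparison, and neither did any other of the 11380 genes tested (0 called, 0%, in TAC against sham, LD against TAC and LD against sham). By unadjusted p under 0.05, Col8a1 was higher in TAC than in sham, 1 of 25 collagens against 2.85% of all genes, and no collagen was lower (2.58% of all genes). In LD against TAC, 3 of 25 (Col5a3, Col6a2 and Col15a1) were lower, against 6.31% of all genes, and none higher (2.51%). In LD against sham, Col9a2 was higher (1 of 25, against 1.52%) and Col5a3 lower (1 of 25, against 3.59%). Col9a2 reached an FPKM of 1 only in TAC replicate 3 and LD replicates 1 and 3, so that it was tested only because of the operated groups. With a pseudocount of 0.1 no collagen was higher in LD than in sham (1.43% of all genes). With only the 2 groups fitted 3 of 25 were (2.3%). Across the 3 groups at once, 2 of 25 (Col8a1 and Col5a3) had an unadjusted F test p under 0.05, against 6.76% of all genes. Counts of 1 or 2 in 25 are near these background shares. Without TAC replicate 3 no collagen had an unadjusted p under 0.05 between TAC and sham (2.69% of all genes higher, 3.25% lower). Between LD and TAC none was then lower (3.59%) and 1, Col9a2, was higher (2.01%). When TAC replicate 1 was left out instead, 4 of 25 were higher in TAC than in sham (5.18%) and 6 of 25 lower in LD than in TAC (10.5%). The first 2 comparisons share the TAC libraries, so that a high TAC library moves both.

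The median log2 difference of the 25 collagens between TAC and sham was 0.27, with 18 above 0, beside a median of -7.22e-05 and 50% above 0 over all genes tested. Between LD and TAC it was -0.26, with 20 below 0, beside -0.10 and 60.4% below 0 over all genes. Between LD and sham it was -0.21, with 17 below 0, beside -0.11 and 62.8%. Without TAC replicate 3 the first median was -0.03 (10 above 0), beside -0.02 over all genes (5416 of 11380 above 0). The second was then -0.08 (17 below 0), beside -0.08 over all genes (6678 of 11380 below 0). All log2 differences are of log2(FPKM + 1), which understates the change of low genes. After median-of-ratios scaling the median of all genes between LD and TAC was 0.01 and that of the collagens -0.13.

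**Figure D3:**
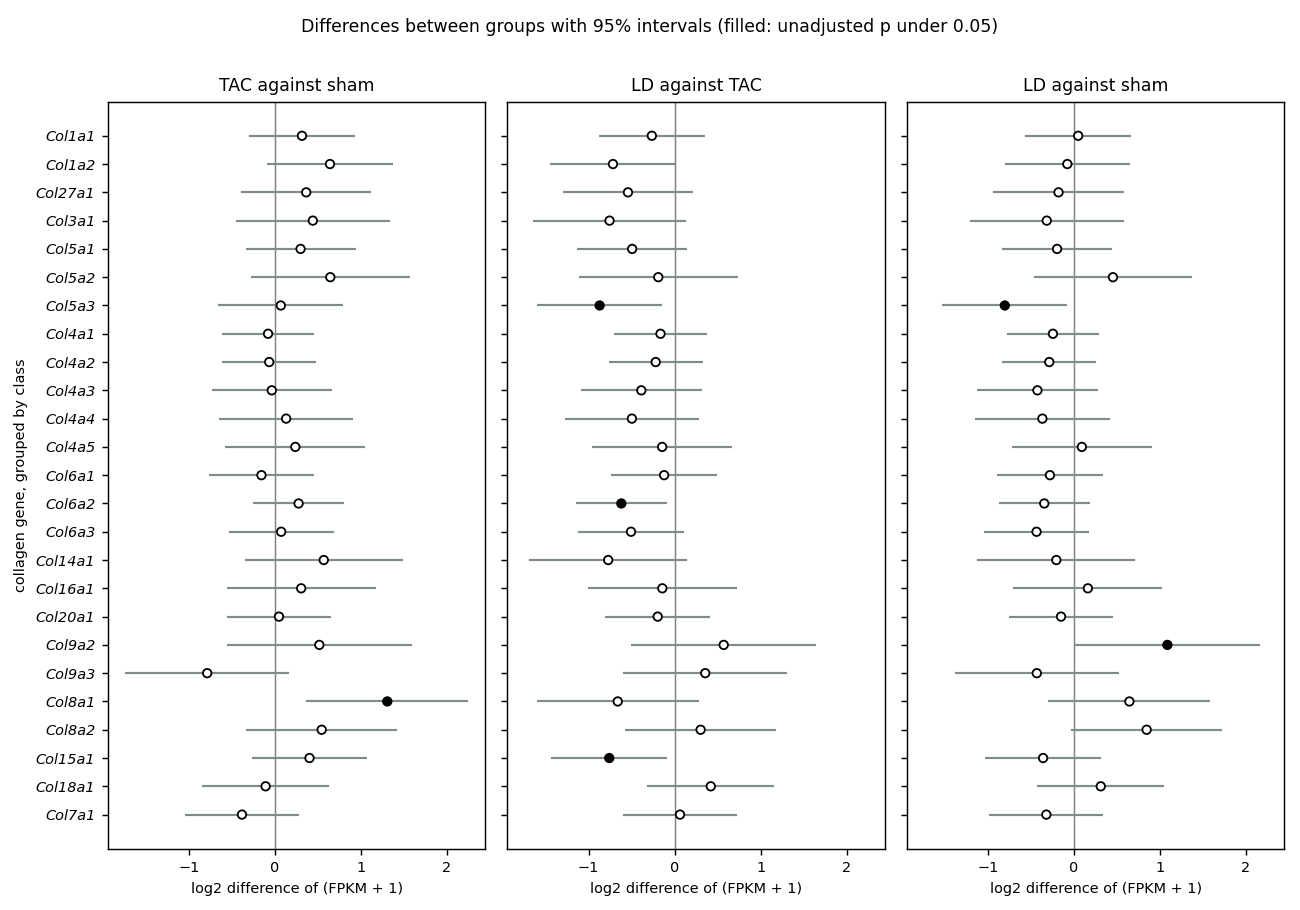
Difference of log2(FPKM + 1) (x axis) for the 25 tested collagen genes (y axis, grouped by class) in TAC against sham, LD against TAC and LD against sham; lines are limma's 95% intervals and filled points have an unadjusted p under 0.05. Of the 25 points, 18 lie above 0 in the first panel and 20 below 0 in the second, and the intervals of most genes cross 0.

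Fibrillar collagens were above sham in TAC for 7 of 7 tested genes (median 0.36) and below TAC in LD for 7 of 7 (median -0.54), with no gene passing the test. Leaving out TAC replicate 3 gave a first median of 0.0086, with 4 of 7 above 0, and a second of -0.27, with 6 of 7 below 0. Col1a1 and Col1a2 encode the α1 and α2 chains of type I collagen, the main tensile fibre of the heart. Col1a1 stood at 15.3, 11.0 and 14.1 FPKM in sham, 12.5, 17.1 and 22.1 in TAC and 13.1, 10.4 and 19.3 in LD. Its groups overlapped, with a log2 difference of 0.31 ± 0.29 (SE; adjusted p = 0.997) between TAC and sham and -0.26 ± 0.29 (adjusted p = 0.772) between LD and TAC. These were 0.12 and -0.075 when TAC replicate 3 was left out. Col1a2 stood at 32.7, 20.8 and 22.3 FPKM in sham, 21.6, 41.2 and 66.8 in TAC and 25.6, 22.5 and 22.3 in LD. TAC replicates 2 and 3 were above every sham and LD library, while TAC replicate 1 lay at the sham level. The Col1a2 difference was 0.64 ± 0.34 (adjusted p = 0.958) between TAC and sham and -0.72 ± 0.34 (adjusted p = 0.566) between LD and TAC, or 0.26 and -0.34 when the same library was left out.

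Col3a1 encodes type III collagen, a thinner and more compliant fibre that copolymerizes with type I. It stood at 56.3, 27.7 and 27.6 FPKM in sham, 25.2, 45.8 and 94.6 in TAC and 30.004, 20.2 and 36.0 in LD. The highest and the lowest library of the water-treated mice were both TAC libraries, and sham replicate 1 was above 2 of the 3 TAC libraries. Its difference between TAC and sham was 0.44 ± 0.42 (adjusted p = 0.997), and -0.04 without TAC replicate 3. LD stood -0.76 ± 0.42 from TAC (adjusted p = 0.596), and -0.27 without TAC replicate 3.

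Type V collagen nucleates type I fibrils and limits their diameter, and is built from the chains of Col5a1, Col5a2 and Col5a3. Col5a1 stood at 10.7, 6.52 and 9.27 FPKM in sham, 8.22, 9.26 and 16.7 in TAC and 6.49, 7.24 and 8.70 in LD, with TAC replicate 3 apart from the other 8 libraries. Col5a2 stood at 6.55, 5.59 and 7.66 in sham, 6.58, 6.44 and 28.0 in TAC and 11.3, 7.38 and 9.75 in LD. Here TAC replicates 1 and 2 lay inside the sham range, and the difference between TAC and sham was 0.64 ± 0.43 (adjusted p = 0.991) with TAC replicate 3 and -0.01 without it. LD and TAC differed in Col5a2 by -0.19 ± 0.43, and by 0.46 without that library. Col5a1 differed by 0.30 ± 0.30 and -0.49 ± 0.30 in these comparisons, and by 0.0086 and -0.21 without it.

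Col5a3 had a different order. It stood at 39.5, 37.0 and 50.3 FPKM in sham, 41.3, 30.04 and 68.0 in TAC and 35.9, 24.3 and 14.8 in LD. All 3 LD libraries were below all 3 sham libraries, and LD replicate 3 was the lowest. The log2 difference between LD and sham was -0.80 ± 0.34 (95% interval -1.53 to -0.08, adjusted p = 0.875), and -0.49 without LD replicate 3. Against TAC it was -0.87 ± 0.34 (adjusted p = 0.537), -0.55 without LD replicate 3 and -0.56 without TAC replicate 3. Between TAC and sham Col5a3 differed by 0.07 ± 0.34. Col27a1, a fibrillar collagen known from cartilage, ranged from 2.18 to 7.85 FPKM over the 9 libraries, with TAC replicate 3 highest.

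LD was set against sham as well, which asks how far the treated TAC hearts lay from the sham level. The log2 difference was 0.05 ± 0.29 for Col1a1, -0.08 ± 0.34 for Col1a2, -0.32 ± 0.42 for Col3a1, -0.20 ± 0.30 for Col5a1 and 0.45 ± 0.43 for Col5a2, with overlapping groups and adjusted p between 0.893 and 0.981. The 95% interval for Col1a1 ran from -0.57 to 0.67 and that for Col3a1 from -1.21 to 0.58, so that moderate differences in either direction lie inside them.

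**Figure D4:**
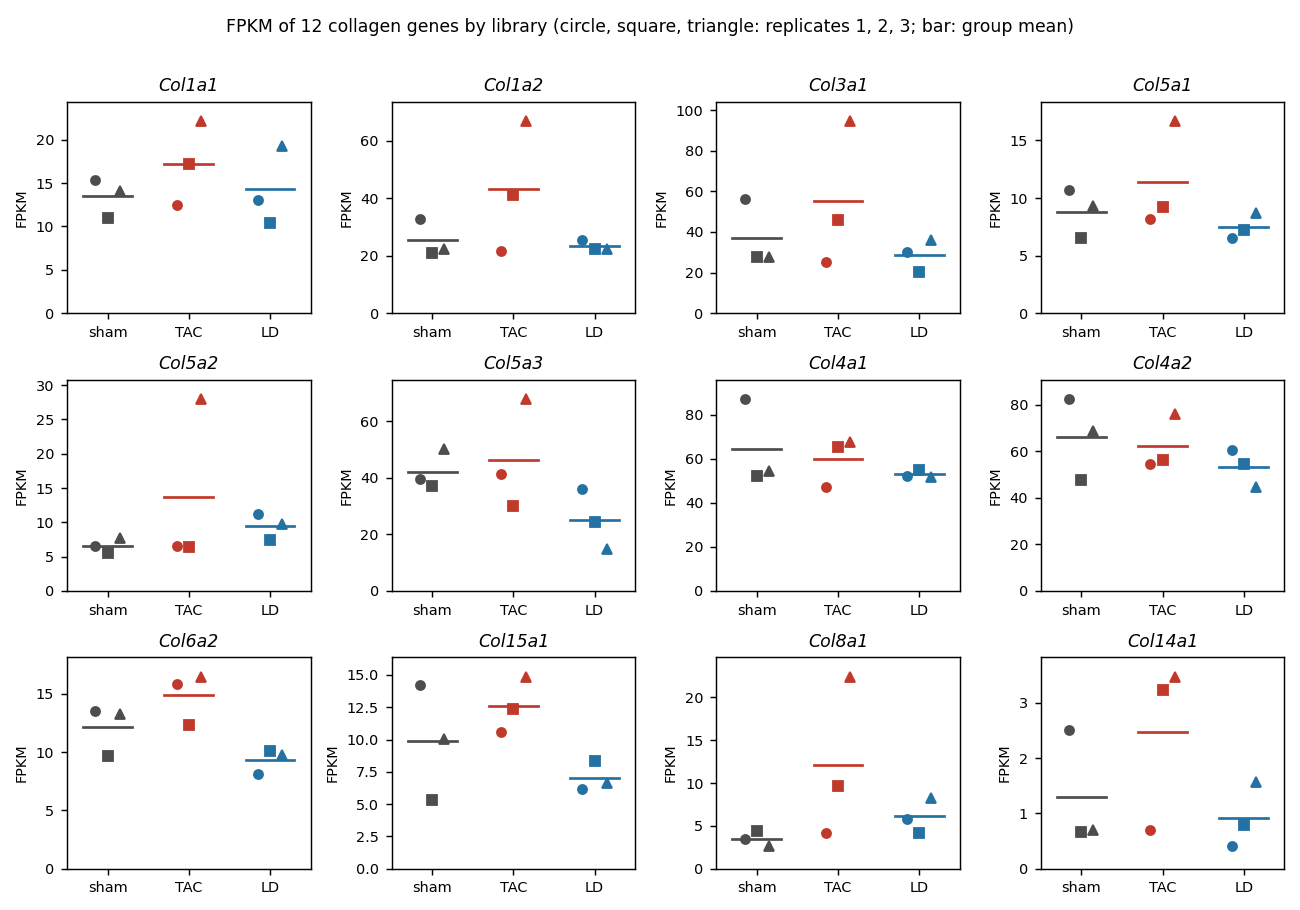
FPKM (y axes, from 0) of 12 collagen genes in the sham, TAC and LD groups (x axes); circles, squares and triangles are replicates 1, 2 and 3, and bars are group means. In Col4a1 and Col4a2 the highest point is sham replicate 1, and in each of the other genes shown it is the TAC triangle.

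Of the 5 tested basement membrane collagens, 2 were above sham in TAC (median -0.04) and 5 below TAC in LD (median -0.22), and single libraries decided these counts. Between TAC and sham 0 of 5 were above 0 without TAC replicate 3 (median -0.22) and 5 of 5 without TAC replicate 1 (median 0.08). LD was below TAC in 4 of 5 without TAC replicate 3 (median -0.072), and above it in 3 of 5 with LD replicate 3 also left out (median 0.048). Col4a1 and Col4a2 encode the chains of the common type IV network. Col4a1 stood at 87.2, 52.3 and 54.4 FPKM in sham, 47.2, 65.3 and 67.7 in TAC and 52.1, 54.9 and 51.6 in LD. Col4a2 stood at 82.5, 47.8 and 68.5 in sham, 54.6, 56.4 and 75.9 in TAC and 60.6, 54.5 and 44.6 in LD. Sham replicate 1 was the highest library for both. The differences between TAC and sham were -0.08 ± 0.25 (95% interval -0.62 to 0.45) for Col4a1 and -0.07 ± 0.25 (-0.61 to 0.48) for Col4a2. Both turned positive without sham replicate 1, at 0.15 and 0.10, and without TAC replicate 1, at 0.08 and 0.02. Between LD and TAC they were -0.16 ± 0.25 and -0.22 ± 0.25, and -0.069 and -0.072 with TAC replicate 3 left out.

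The 2 genes lie head to head on chromosome 8, where their annotated ends overlap by 22 bases, and the ratio of Col4a1 to Col4a2 stayed between 0.794 and 1.16 over all 9 libraries. Col4a3 and Col4a4, which lie head to head on chromosome 1 with 71 bases between them, were lower: Col4a3 ranged from 0.585 to 2.48 FPKM and Col4a4 from 1.22 to 5.74, each highest in TAC replicate 3. Col4a5, whose chain joins those of Col4a3 and Col4a4 in a specialized network, stood at 6.89, 7.02 and 7.13 FPKM in sham, 5.23, 6.61 and 16.7 in TAC and 12.2, 6.30 and 5.45 in LD. The sham libraries of Col4a5 were nearly level, while TAC replicate 3 and LD replicate 1 stood above the rest. Col4a3 shares 563 exonic bases with an opposite-strand transcript, C430014B12Rik. The labels' library protocol names no step that marks the strand, so that reads of such partners cannot be told apart.

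In the microfibrillar class, whose Col6a1, Col6a2 and Col6a3 chains assemble into type VI collagen around cells, 3 of 3 tested genes were below TAC in LD (median -0.51). Col6a2 stood at 13.5, 9.70 and 13.3 FPKM in sham, 15.8, 12.3 and 16.5 in TAC and 8.11, 10.1 and 9.72 in LD. All 3 LD libraries of Col6a2 were below all 3 TAC libraries, with a difference of -0.62 ± 0.24 (95% interval -1.15 to -0.09, adjusted p = 0.537), and -0.55 without TAC replicate 3. Col6a3 stood at 6.69, 3.37 and 3.38 in sham, 4.36, 4.84 and 4.45 in TAC and 2.97, 2.70 and 3.04 in LD. Its LD libraries were below all sham and all TAC libraries (-0.51 ± 0.28 against TAC, adjusted p = 0.602; -0.44 ± 0.28 against sham, adjusted p = 0.875, and -0.16 without sham replicate 1). Over all genes tested, 8.14% had LD libraries wholly below TAC and 8.76% wholly below sham. Among the tested collagens these were 3 of 25 (Col6a2, Col6a3 and Col15a1) and 2 of 25 (Col5a3 and Col6a3). LD libraries were wholly above TAC in 3.73% of all genes tested, with none of the 25 tested collagens among those. Under the testing level, Col19a1, Col22a1 and Col26a1 had LD libraries wholly above TAC, and Col11a2 had them wholly below sham. No share over all genes under that level was counted, so that these have no background beside them. Col19a1 rested on 0, 0 and 2 recovered fragments in TAC and 6, 5 and 10 in LD. Col6a1 stood at 26.4, 21.5 and 22.8 FPKM in sham, 18.3, 15.5 and 32.2 in TAC and 22.3, 21.2 and 14.8 in LD, with overlap in every comparison (-0.16 ± 0.29 between TAC and sham, -0.12 ± 0.29 between LD and TAC, or -0.46 and 0.18 without TAC replicate 3). The LD to TAC difference of Col6a1 changed sign after median-of-ratios scaling, to 0.01.

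Among the fibril-associated collagens, 4 of 5 tested genes were above sham in TAC (median 0.30), but 1 of 5 without TAC replicate 3 (median -0.098). Col14a1, which binds the fibril surface, stood at 2.5, 0.672 and 0.703 FPKM in sham, 0.707, 3.23 and 3.47 in TAC and 0.419, 0.783 and 1.57 in LD. Sham replicate 1 and TAC replicates 2 and 3 were high and the other libraries low, and the differences were 0.57 ± 0.43 (adjusted p = 0.997) between TAC and sham and -0.77 ± 0.43 (adjusted p = 0.597) between LD and TAC. Leaving out TAC replicate 3 made the first 0.32, and leaving out TAC replicate 1 made it 1.02 and the second -1.22. Col16a1 and Col20a1 ranged from 1.06 to 5.17 and from 1.23 to 2.27 FPKM, each highest in TAC replicate 3. Col9a2 and Col9a3 encode chains of type IX collagen, best known from cartilage, and differed in which libraries were high. Col9a2 stood at 0, 0.0501 and 0.196 FPKM in sham, 0.0433, 0.0979 and 2.19 in TAC and 1.32, 0.161 and 3.45 in LD. The difference of Col9a2 between LD and sham was 1.09 ± 0.50 (adjusted p = 0.875), and 0.61 without LD replicate 3. Col9a3 stood at 2.49, 1.02 and 2.85 in sham, 1.003, 1.63 and 0 in TAC and 2.54, 0.298 and 1.41 in LD, so that TAC replicate 3 was high for Col9a2 and listed at 0 for Col9a3. Col9a3 shares 234 exonic bases with Tcfl5 on the opposite strand, and differed by -0.79 ± 0.44 (adjusted p = 0.969) between TAC and sham, and by -0.39 without TAC replicate 3.

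The short-chain collagen Col8a1, a chain of the type VIII network made by vascular and other mesenchymal cells, had the smallest p of any collagen. It stood at 3.49, 4.35 and 2.60 FPKM in sham, 4.21, 9.68 and 22.4 in TAC and 5.82, 4.22 and 8.26 in LD. TAC replicates 2 and 3 were above every sham and LD library, TAC replicate 1 lay inside the sham range, and 2 of the 3 LD libraries were above all sham libraries. The difference between TAC and sham was 1.30 ± 0.44 (95% interval 0.36 to 2.25, adjusted p = 0.772). It was 0.75 without TAC replicate 3 (adjusted p = 0.864). LD differed from TAC by -0.66 ± 0.44 (adjusted p = 0.640), and by -0.11 without TAC replicate 3, and from sham by 0.64 ± 0.44. Its partner chain Col8a2 stood at 0.212, 0.106 and 0 FPKM in sham, 0.0228, 1.83 and 0.428 in TAC and 0.310, 1.06 and 1.87 in LD. All 3 LD libraries of Col8a2 were above all sham libraries, 1 of 25 collagens against 4.47% of all genes, with a difference of 0.84 ± 0.41 (adjusted p = 0.875). Col8a2 reached an FPKM of 1 only in TAC replicate 2 and LD replicates 2 and 3. It was tested only because of the operated groups, so that its count as higher than sham depends on the filter.

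The multiplexins Col15a1 and Col18a1 are proteoglycan-bearing collagens of basement membrane zones, and the end of the Col18a1 chain is the source of endostatin. Col15a1 stood at 14.2, 5.34 and 10.1 FPKM in sham, 10.6, 12.4 and 14.9 in TAC and 6.15, 8.31 and 6.62 in LD. All LD libraries were below all TAC libraries (-0.76 ± 0.31, adjusted p = 0.540; -0.64 without TAC replicate 3), while sham spanned both. Col18a1 stood at 5.60, 3.70 and 2.26 in sham, 3.98, 3.21 and 2.84 in TAC and 7.99, 3.94 and 3.35 in LD, with overlap in every comparison (0.42 ± 0.34 between LD and TAC, and 0.10 without LD replicate 1). Col7a1, the anchoring fibril collagen of epithelia, stood at 1.34, 1.24 and 0.930 FPKM in sham, 0.498, 0.650 and 0.839 in TAC and 1.2, 0.850 and 0.274 in LD. It was lower in all 3 TAC than in all 3 sham libraries, 1 of 25 collagens against 4.62% of all genes (none was wholly higher, against 5.22%), with a difference of -0.39 ± 0.31 (adjusted p = 0.997).

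The 13 collagens under the testing level were Col10a1, Col11a2, Col12a1, Col13a1, Col17a1, Col19a1, Col22a1, Col23a1, Col25a1, Col26a1, Col28a1, Col4a6 and Col6a6. They include all 4 transmembrane collagens, Col13a1, Col17a1, Col23a1 and Col25a1. Col12a1, a FACIT collagen of dense connective tissue, stood at 0.114, 0.131 and 0.203 FPKM in sham, 0.208, 0.181 and 0.762 in TAC and 0.139, 0.242 and 0.307 in LD. TAC replicate 3 was again the highest. When all genes above 0 in at least 3 libraries were tested, Col12a1 differed by 0.24 ± 0.17 between TAC and sham (adjusted p = 0.939).

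Col26a1 was carried by few fragments and was listed at 0 in the whole TAC group. It had 24, 13 and 8 recovered fragments in sham, 0, 0 and 0 in TAC and 12, 7 and 35 in LD. Taking 3 fragments in the 3 TAC libraries together as the limit, Col26a1 was about 10.2-fold lower in TAC than in sham. By the same limit it was about 14.0-fold higher in LD than in TAC. These folds allow for counting error in TAC only, with the pooled sham or LD fragments taken as they stand. They leave out the spread between mice, and the gene is given because it was at 0 in TAC. In the test of all genes above 0 in at least 3 libraries the LD to TAC difference was 0.42 ± 0.15 (adjusted p = 0.620). In that test Col22a1 differed by 0.44 ± 0.15 between LD and TAC (adjusted p = 0.620), at 0, 0.167 and 0.0347 FPKM in TAC and 0.418, 0.301 and 0.619 in LD. The 6 collagen symbols above 0 in fewer than 3 libraries were Col11a1, Col24a1, Col2a1, Col6a4, Col6a5 and Col9a1; Col9a1 was listed at 0 in all 9.

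The make-up of the collagen transcripts was also compared within each library, where the total cancels. The fibrillar class held 38.5%, 40.1% and 40.5% of collagen FPKM in sham, 40.4%, 43.1% and 52.2% in TAC and 39.9%, 34.7% and 40.6% in LD. The basement membrane class held 41.9%, 39.7% and 40.3% in sham, 37.2%, 36.8% and 28.9% in TAC and 39.6%, 43.5% and 37.5% in LD. The basement membrane share was lower in all 3 TAC libraries than in all sham and all LD libraries (means of 34.3% in TAC, 40.7% in sham and 40.2% in LD; TAC against sham and LD against TAC, exact permutation test, two-sided p = 0.1, the smallest possible; adjusted p = 0.6 over 12 comparisons). The nearest libraries were TAC replicate 1 at 37.2% and LD replicate 3 at 37.5%. The fibrillar share of TAC overlapped sham (exact p = 0.2). Shares of 1 whole are not independent, so that a higher fibrillar share goes with a lower share of the other classes by arithmetic.

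Ratios between chains differed between libraries, also for chains of the same collagen type. Col1a1 over Col1a2 ranged from 0.332 in TAC replicate 3 to 0.863 in LD replicate 3, around a median of 0.511. Col3a1 over Col1a1 ranged from 1.87 to 4.27, with TAC replicate 3 highest and LD replicate 3 lowest. The ratio of Col5a1 to Col5a2 was lower in all LD than in all sham libraries (a mean log2 ratio of -0.33 ± 0.41 against 0.40 ± 0.27; exact adjusted p = 0.7 over 21 comparisons). The ratio of Col15a1 to Col18a1 was lower in all LD than in all TAC libraries (0.56 ± 0.81 against 1.92 ± 0.49; exact adjusted p = 0.7). No other ratio separated 2 groups.

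TAC replicate 3 was the highest library for 17 of the 25 tested collagens, sham replicate 1 for 4, LD replicate 3 for 2, and sham replicate 3 and LD replicate 1 for 1 each. The median deviation of the 25 genes from the sham mean was 0.69 in TAC replicate 3, with 22 genes above it, but -0.17 in TAC replicate 1 and 0.03 in TAC replicate 2. In sham it was 0.16, -0.20 and -0.04, and in LD -0.07, -0.23 and -0.14. Over all genes tested the median deviation was 0.08 in TAC replicate 3 and -0.24 in LD replicate 3, where the collagen value was -0.14. In the other libraries it lay between -0.05 and 0.04. TAC replicate 1 was thus below the sham mean in most collagens, with 7 genes above it, and the TAC group held both the highest library and one of the lower ones.

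**Figure D5:**
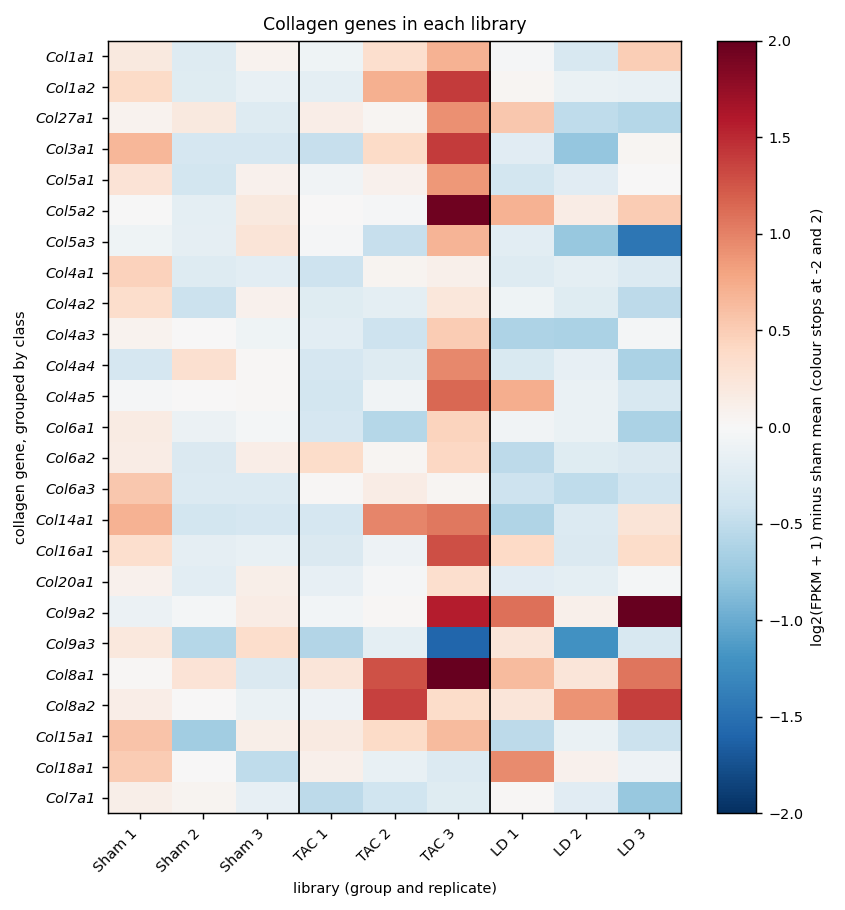
Deviation of log2(FPKM + 1) from the sham mean (colour) for the 25 tested collagens (rows, by class) in the 9 libraries (columns, group and replicate). The column of TAC replicate 3 is red in 22 of 25 rows, and the columns of TAC replicates 1 and 2 show 7 and 13 genes above the sham mean.

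The genes that build, modify, bind and degrade collagen were taken from lists and are given by counts. Collagen fibril regulators were small leucine-rich proteoglycans together with Comp, Postn, Fn1, Thbs2, Ctgf and Tnxb. Postn is also in the list of activated fibroblast markers given below. The regulators had a median difference of 1.05 between TAC and sham, with 13 of 13 above 0. Of these 9 had an unadjusted p under 0.05 (2.85% of all genes), none past the adjusted threshold. Bgn, or biglycan, stood at 158, 151 and 145 FPKM in sham, 277, 530 and 407 in TAC and 250, 248 and 263 in LD, a difference of 1.36 ± 0.24 between TAC and sham (adjusted p = 0.129). All TAC and all LD libraries of Bgn were above all sham libraries. Comp, which binds collagens I and IX, differed by 2.5 ± 0.36 (adjusted p = 0.0856) and Fmod, or fibromodulin, by 1.77 ± 0.33 (adjusted p = 0.145). Leaving out TAC replicate 3 the list's median was 0.90 with 6 of 13 higher at p under 0.05 (2.69% of all genes). Without TAC replicate 1 the median was 1.60, with 2 genes, Bgn and Comp, past the adjusted threshold. Of all 11380 genes tested, 12 were then higher past that threshold and 1 lower.

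Procollagen processing and crosslinking genes had a median of 0.39 between TAC and sham, with 4 of 11 higher at p under 0.05 (2.85% of all genes). Pcolce2, an enhancer of C-propeptide removal, stood at 10.4, 8.34 and 6.98 FPKM in sham, 16.5, 21.9 and 20.3 in TAC and 14.4, 17.1 and 21.9 in LD. The TAC and the LD libraries were all above the sham libraries, with 1.11 ± 0.25 between TAC and sham (adjusted p = 0.394). Lox, the crosslinking lysyl oxidase, stood at 1.45, 1.63 and 1.497 in sham, 1.66, 5.99 and 13.3 in TAC and 3.57, 2.67 and 0.921 in LD (1.35 ± 0.50, adjusted p = 0.793), and its paralog Loxl1 differed by 0.74 ± 0.27 (adjusted p = 0.789). With TAC replicate 3 left out, 2 of 11 were higher at p under 0.05 (2.69% of all genes).

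Collagen hydroxylation, glycosylation and folding genes, which act on the chains in the endoplasmic reticulum, had a median of 0.10 between TAC and sham. At p under 0.05, 1 of 21 was higher (2.85% of all genes) and 2 were lower (2.58%). In LD against TAC their median was -0.27, with 4 of 21 lower (6.31% of all genes). P4ha1, a catalytic subunit of prolyl 4-hydroxylase, stood at 20.5, 14.1 and 16.0 FPKM in sham, 22.9, 20.8 and 24.3 in TAC and 8.44, 12.4 and 10.9 in LD. All LD libraries of P4ha1 were below all sham and all TAC libraries, at -1.04 ± 0.24 against TAC (adjusted p = 0.366). Crtap, a partner of prolyl 3-hydroxylase, differed by -1.08 ± 0.27 (adjusted p = 0.398), also with no overlap. With TAC replicate 3 left out, 4 of 21 were again lower at p under 0.05 (3.59% of all genes), and with TAC replicate 1 left out 7 of 21 (10.5%).

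Collagen receptors had no gene of 9 at p under 0.05 between TAC and sham (median 0.25). In LD against TAC 2 of 9 were lower at p under 0.05 (median -0.45, against 6.31% of all genes). They were led by Mrc2, an endocytic collagen receptor, at -0.64 ± 0.26 (adjusted p = 0.537). With TAC replicate 3 left out none of the 9 was lower at p under 0.05 (3.59% of all genes). Collagen breakdown genes had 2 of 11 higher in TAC, Timp1 (1.48 ± 0.41, adjusted p = 0.666) and Timp2, both inhibitors of matrix proteases, against 2.85% of all genes. The count was 1 of 11 when TAC replicate 3 was left out (2.69%). In LD against TAC 4 of 11 were lower at p under 0.05 (6.31% of all genes), led by the membrane protease Mmp14 at -1.08 ± 0.27 (adjusted p = 0.400). Mmp14 stood at 19.5, 17.9 and 22.5 FPKM in sham, 19.4, 26.1 and 26.9 in TAC and 10.3, 15.7 and 7.73 in LD, so that LD lay below both other groups.

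Cell type markers also differed between the libraries, and their part in the collagen differences was not tested. The summed FPKM of 15 fibroblast markers was 1060 to 1229 in sham, 1275 to 2041 in TAC and 1123 to 1798 in LD. None of the 15 was at 0 in all 9 libraries. Between TAC and sham 13 of 13 tested were above 0 and 6 were higher at p under 0.05 (2.85% of all genes). The sum of 13 activated fibroblast markers was 50.7 to 90.4 in sham, 103 to 440 in TAC and 115 to 177 in LD. Between TAC and sham 8 of 10 tested were higher at p under 0.05 (median 1.46, against 2.85% of all genes). With TAC replicate 3 left out it was 6 of 10 (median 0.95, against 2.69% of all genes). Without TAC replicate 1, 4 of the 10, Cilp, Mfap5, Thbs4 and Wisp2, passed the adjusted threshold. Of all 11380 genes tested, 12 were then higher past it and 1 lower. The 15 endothelial markers summed to 3833 to 5045 in sham, 4179 to 4709 in TAC and 3677 to 5463 in LD, with 0 of 14 at p under 0.05 between TAC and sham. Erythroid markers summed to 524 to 3352 in sham, 2249 to 11079 in TAC and 1218 to 2288 in LD. All 7 tested erythroid markers were above 0 between TAC and sham (median 1.35). Of these 3 were higher at p under 0.05 (2.85% of all genes), and 6 without TAC replicate 3 (2.69%). All 7 were below 0 between LD and TAC (median -1.11). Of these 2 were lower at p under 0.05 (6.31% of all genes), and 5 without TAC replicate 3 (3.59%). In LD against TAC, 3 of 13 fibroblast markers (median -0.31), 1 of 10 activated fibroblast markers (median -0.45) and 2 of 14 endothelial markers (median -0.16) were lower at p under 0.05, against 6.31% of all genes. Without TAC replicate 3 the activated fibroblast median was 0.03. Cardiomyocyte markers had 4 of 15 higher in LD than in TAC at p under 0.05 (median 0.24, against 2.51% of all genes). Their mean deviation from the sham mean was 0.20, 0.22 and 0.78 in LD replicates 1, 2 and 3, with LD replicate 3 apart. In TAC replicates 1, 2 and 3 it was 0.03, 0.13 and 0.07. Between TAC and sham 2 of the 15 were higher (2.85% of all genes) and 2 lower (2.58%). By mean deviation over its members the activated fibroblast list stood at 0.57, 1.29 and 2.07 in TAC replicates 1, 2 and 3. Of the other lists, pericyte and smooth muscle markers had 1 of 14 higher at p under 0.05 between TAC and sham (2.85% of all genes). Macrophage markers had 1 of 13 and valve and cartilage markers 2 of 4 (median 1.19). The 2 valve and cartilage genes were Comp and Fmod, which are also in the list of collagen fibril regulators. Epicardial (2 tested) and adipocyte markers (2 tested) had none, and Schwann cell markers had 1 of 5 lower (2.58% of all genes).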

How the data were processed

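Heart poly-A RNA-seq of 9 mice was used (3 sham, 3 TAC, 3 LD). The authors deposited FPKM values per gene symbol in 1 table with 9 columns, each matched to its sample by name. Per the submitters' processing notes, the build was GRCm38 and the tools included HISAT2 2.1.0, Cufflinks 2.2.1, fastp 0.20.0, CASAVA 1.8, DESeq, and HTSeq 0.7.2. The roles of these tools, the annotation and the strand setting were not given in the sources used here. Steps in the deposited FPKM gave back whole fragments per gene, each library's total and each gene's length (16262 genes above 0, 100% whole within 0.001). The lengths so obtained were within 25% of the annotated exon length for 44.0% of 15593 genes, so levels compared between genes carry that uncertainty.

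Values were analysed as log2(FPKM + 1) with limma 3.58.1 in R 4.3.3: all 9 libraries in 1 fit, 1 mean per group, 6 residual degrees of freedom, empirical Bayes with trend, two-sided moderated tests, Benjamini-Hochberg over 11380 genes, adjusted p under 0.05. The fit was tested on simulated data. Shares and chain ratios used exact permutation tests (scipy 1.17.1). The ratio of Col8a1 to Col8a2 was planned and left out, because Col8a2 was at 0 in 1 sham library. Errors of log2 differences are limma's SE. With 3 mice a group the p-values set each difference against the spread between these mice. In limma that spread is drawn partly from the other genes (7.78 prior degrees of freedom).

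Exon lengths, coordinates and coding sequence came from GENCODE M21, upstream sequence from RefSeq (GRCm38.p6). The collagens, classes, lists and tests were chosen with earlier results of these data known. Named with statistics were, per comparison, in each direction the 5 genes with the lowest p and the main chains of each class; of other lists up to 3 genes of smallest p, and genes past the threshold in an alternative, chosen after their values were seen.

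Alternatives were a pseudocount of 0.1, all genes above 0 in at least 3 libraries, median-of-ratios scaling, equal FPKM sums, only the 2 groups compared, a replicate block, no trend, library weights, limma's voom on recovered fragments, leaving out each library, and leaving out TAC replicate 3 and LD replicate 3 together.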

Additional observations from a re-analysis of the deposited data

How the results depend on the processing

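No collagen passed the adjusted threshold under any alternative run, including the replicate block, which changed no call (0 genes called in each comparison with it); same-numbered libraries of different groups share only a number, with correlations of deviations between -0.236 and 0.146. Counts over all genes did change. Between TAC and sham 9 genes passed with library weights, 4 with voom and 0 to 13 when 1 library was left out (13 without TAC replicate 1). Between LD and sham 10 passed with only the 2 groups, 135 with library weights, 3 with voom and 0 to 8 when 1 library was left out. The collagen median between TAC and sham ranged from -0.026 (without TAC replicate 3, and the same with LD replicate 3 also left out) to 0.47 (without TAC replicate 1) over single left-out libraries. The cause was not tested.

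Of 54 named collagen differences, 36 never changed sign over 1026 values, 38 of which did. Some alternatives leave a log2 difference unchanged by construction, so that these counts overstate how stable the signs were. They are the looser filter, only the 2 groups, the replicate block, no trend and leaving out a library of the group not compared. Between TAC and sham, over left-out libraries, Col18a1 ranged from -0.37 to 0.14, Col3a1 from -0.044 to 0.89, Col4a1 from -0.21 to 0.15, Col4a2 from -0.28 to 0.10, Col5a2 from -0.0076 to 0.97, Col6a1 from -0.46 to 0.049 and Col6a3 from -0.065 to 0.34. Without TAC replicate 3 and LD replicate 3 together, Col3a1 was -0.044 and Col5a2 -0.0076 in that comparison. Between LD and TAC the ranges were -0.52 to 0.46 for Col5a2, -0.33 to 0.18 for Col6a1, -0.11 to 0.28 for Col7a1, -0.022 to 0.71 for Col8a2 and -0.043 to 0.75 for Col9a3. With both libraries left out, Col4a2 was 0.048, Col5a2 0.43, Col6a1 0.35, Col8a2 -0.050 and Col9a3 -0.10. Library weights gave 0.17 for Col6a1 and -0.43 for Col9a3, median-of-ratios scaling 0.014 for Col6a1, and voom -0.18 for Col7a1. Between LD and sham the ranges were -0.44 to 0.15 for Col14a1, -0.0076 to 0.56 for Col18a1, -0.18 to 0.24 for Col1a1, -0.20 to 0.12 for Col1a2 and -0.49 to 0.015 for Col3a1. Col1a1 was -0.037 with equal FPKM sums, -0.18 with library weights and -0.18 with both libraries left out, and Col1a2 was 0.043 after median-of-ratios scaling. In the shallowest library, 3 fragments of a 1-kilobase gene give an FPKM of 0.404; how depth bears on the 13 low collagens was not tested.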
